A study of Homo sapiens with 26 samples.

Results

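The genes of the mitochondrial ribosomal proteins were described across 26 RNA-seq libraries of 3 established human cancer cell lines. They were chosen by name: protein-coding genes on a standard chromosome called MRPL or MRPS followed by a number and at most 1 letter, with a mean FPKM (reads divided by gene length and by a depth factor of the library) of at least 1. The names matched 78 of 58735 genes, and 77 had a mean FPKM of 1 or more. The gene left out was MRPS24, with a mean of 0.0894 FPKM, and the members nearest to the minimum were MRPL46 with 1.32, MRPL38 with 1.61 and MRPL53 with 2.26 FPKM.

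Mitochondrial ribosomes translate the few mRNAs that mitochondrial DNA encodes, all of which specify subunits of the respiratory chain or of ATP synthase. Their ribosomal RNAs are transcribed in the organelle, whereas every protein of the large (MRPL) and small (MRPS) subunit is encoded in the nucleus, translated in the cytosol and imported. Many of these proteins have a bacterial counterpart, and others were acquired in the mitochondrial lineage. Of the members, 51 belong to the large subunit, including MRPS30 and MRPS18A despite their names, and 25 to the small subunit. MRPS36, now known as a part of the 2-oxoglutarate dehydrogenase complex, belongs to neither.

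The lines were HCT116 and DLD1, both from colorectal tumours, and CAL51, a triple negative breast cancer line. In HCT116 and CAL51, tetraploid (4N) cells had been made with 75 µM of the myosin inhibitor blebbistatin, and in DLD1 with 1.5 µg/mL of the actin inhibitor dihydrocytochalasin, in each case for 20 hr with 48 hr of recovery before cloning from single cells. The labels call the 4N clones large or small, and the series title speaks of cell and nuclear size. HCT116 had 3 large 4N, 3 small 4N and 2 diploid (2N) clones, DLD1 had 4, 3 and 2, CAL51 had 3, 1 and 2, and each line had 1 untreated parental library. The sample titles number biological replicates within a class, and each was taken here as a clone of its own. On that reading, p values measure the spread between clones. The labels list no drug for the 2N clones. The drug differed between DLD1 and the other lines, so the line and the drug cannot be told apart.

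Reads assigned to genes ranged between 23.5 M and 44.5 M per library, and 1 read in a gene of 1 kb was worth 0.0246 to 0.0400 FPKM. This floor covers counting error only. Mitochondrial genes took between 2.42% and 10.1% of the reads. The epithelial markers EPCAM, KRT8 and KRT18 were present in every library (at least 32.5 FPKM), while CDH1 ranged over 70.0 to 126 FPKM in DLD1, 0.193 to 11.1 FPKM in CAL51 and 1.92 to 26.2 FPKM in HCT116. The intestinal markers CDX2 (38.5 to 81.8 FPKM), CDH17 (4.94 to 36.9) and VIL1 (0.202 to 8.99) were present in DLD1, where CDX1 was at most 0.0610 FPKM. HCT116 had CDX2 (4.28 to 8.02 FPKM), with CDX1 at 0, VIL1 at most 0.0213 and CDH17 at most 0.0830 FPKM. CAL51 also had the mesenchymal markers VIM (6.53 to 36.9 FPKM) and CDH2. The blood cell markers PTPRC and CD3E stayed at or below 0.480 FPKM.

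The promoters of 68 of the 77 members were found in the RefSeq table (GRCh38.p14), with 84 annotated starts in all. The 250 bases before each start were searched on both strands for 4 motifs. Their factors are known to act on nuclear genes for mitochondrial proteins. A gene was counted when any of its starts had the motif, so genes with more starts had more chances to match. The ETS motif CCGGAAG, a core bound by factors such as GABPA, was present in 25 members (36.8%), against 18.8% of 9956 tested genes with a promoter. The YY1 motif AAGATGGC was present in 5 members (7.35%), against 2.31% of the tested genes. The NRF1 motif, GCGCA and GCGC around any base, was present in 9 members (13.2%), against 11.9%, and the E-box CACGTG in 8 (11.8%), against 11.2%. None of the 4 was present in 29 members (42.6%), against 62.7% of the tested genes. For comparison, the ETS motif was in 33.3% of 63 cytosolic ribosomal protein genes and in 27.9% of 61 nuclear genes of oxidative phosphorylation, and the NRF1 motif was in 21.3% of the oxidative phosphorylation genes. None of these counts was tested, and a match describes letters, not binding.

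The promoters of 4 members on which the results turn are shown: MRPS23, the member called between large and small HCT116 clones, MRPS21 and MRPL17, which differed widely between lines, and MRPL36, which was highest in a clone with a shifted chromosome. Capitals mark the motifs or their reverse complements, and each sequence runs 5′ to 3′ on the gene's strand and ends at the base before the RefSeq start. MRPS23 (chr17:57850045-57850294, minus strand) and MRPS21 (chr1:150293611-150293860, plus strand) have the ETS motif 14 and 11 bases before the start. MRPL17 (chr11:6683341-6683590, minus strand) has the NRF1 motif 81 bases before it, and MRPL36 (chr5:1799838-1800087, minus strand) has NRF1, E-box and YY1 motifs 110, 56 and 35 bases before it. All 4 RefSeq starts lie inside the span that the deposited table gives for the gene.
MRPS23: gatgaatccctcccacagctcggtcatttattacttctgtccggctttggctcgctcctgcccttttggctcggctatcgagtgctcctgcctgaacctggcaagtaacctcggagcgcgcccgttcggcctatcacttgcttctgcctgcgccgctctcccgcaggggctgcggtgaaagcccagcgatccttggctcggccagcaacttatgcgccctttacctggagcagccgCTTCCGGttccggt
MRPS21: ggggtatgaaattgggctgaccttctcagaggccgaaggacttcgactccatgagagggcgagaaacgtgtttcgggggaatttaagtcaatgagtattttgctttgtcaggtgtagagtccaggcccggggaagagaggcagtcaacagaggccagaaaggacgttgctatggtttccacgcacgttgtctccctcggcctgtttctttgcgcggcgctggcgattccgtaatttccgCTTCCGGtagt
MRPL17: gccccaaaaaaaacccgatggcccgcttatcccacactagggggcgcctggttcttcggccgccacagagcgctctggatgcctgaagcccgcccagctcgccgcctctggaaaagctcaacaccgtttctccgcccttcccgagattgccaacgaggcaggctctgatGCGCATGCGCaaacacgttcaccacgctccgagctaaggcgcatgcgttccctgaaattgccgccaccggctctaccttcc
MRPL36: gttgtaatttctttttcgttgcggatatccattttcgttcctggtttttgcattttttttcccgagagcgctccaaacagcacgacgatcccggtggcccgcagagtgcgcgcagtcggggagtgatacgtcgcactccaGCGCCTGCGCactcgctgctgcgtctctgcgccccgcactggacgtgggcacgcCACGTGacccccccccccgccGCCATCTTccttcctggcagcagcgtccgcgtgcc

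The members were expressed at moderate and unequal levels. The median member had a mean of 20.8 FPKM over the 26 libraries, and the quartiles were 10.4 and 32.8 FPKM. The highest were MRPS34 (167 FPKM) and MRPS26 (72.8), 2 small-subunit proteins, followed by MRPL37 (69.3), MRPL41 (62.6) and MRPL3 (58.6) of the large subunit. The lowest were MRPS17 (4.05), MRPS18C (3.35), MRPL53, MRPL38 and MRPL46. The median member of the large subunit had 23.2 FPKM and that of the small subunit 19.0 FPKM. FPKM divides by the deposited gene length, which equals the union of all annotated exons and can exceed the length of the main transcript, as in MRPL46 with 6432 bases.

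Most of the lowest members shared coding sequence with another annotated gene on the same strand. In GENCODE release 29, the coding bases of MRPL53 and MRPS17 were shared in full (100%) with CCDC142 and AC092647.5, those of MRPL38 by 94.1% with AC087289.3 and those of MRPL46 by 64.0% with AC013489.1. MRPS24, the gene below the minimum, shared 92.2% with the read-through gene URGCP-MRPS24. Such reads may be discarded or split in counting, so the levels of these genes are uncertain. The relation was not general, since MRPL12, whose protein forms the ribosomal stalk, shared 96.0% with AC139530.2 and still had 41.4 FPKM, while MRPS18C shared none.

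**Figure D1:**
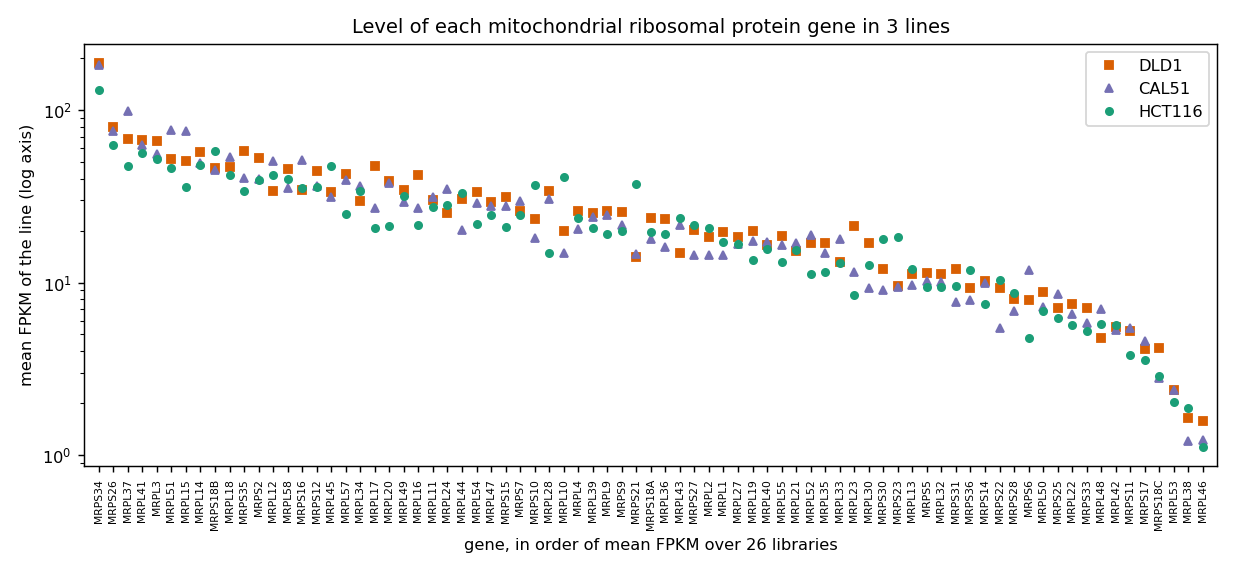
Mean FPKM of each member over the libraries of DLD1, CAL51 and HCT116 (y axis, log scale), with genes in order of their mean over 26 libraries. The order of levels is close in the lines, while MRPS21 and MRPL10 stand higher in HCT116 and MRPL17 and MRPL23 higher in DLD1.

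Residual spread between clones of the same line and class was similar in members and in other genes. The median residual SD of log2(FPKM + 1) was 0.216 over the members and 0.228 over the 14835 genes tested (those reaching 1 FPKM in 3 libraries or more). The widest members were MRPL52 (0.336), MRPL36, MRPL53, MRPS26, MRPS5 and MRPL12 (0.310). For MRPL52, the 3 large CAL51 clones had 32.8, 12.2 and 13.6 FPKM, the small clone 25.6 and the 2N clones 19.5 and 14.1 FPKM. For MRPS5, a homolog of a bacterial small-subunit protein, the large CAL51 clones had 10.4, 18.7 and 6.16 FPKM, the small clone 9.44 and the 2N clones 8.74 and 10.3 FPKM. In both genes a single large CAL51 clone stood above every other library of that line, clone 1 for MRPL52 and clone 2 for MRPS5.

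The members tended to move together within a clone. In bulk RNA, fewer cells of a kind and less RNA per cell cannot be told apart. Relative to the mean of the line's 2N clones, the median member differed by 0.42, 0.15 and 0.48 (log2) in large HCT116 clones 1, 2 and 3, and by -0.00, 0.12 and 0.22 in small clones 1, 2 and 3. In CAL51 the values were 0.41, 0.18 and -0.11 in large clones 1, 2 and 3 and 0.15 in the small clone. In DLD1 they lay between -0.14 and -0.05 in the 4 large clones and between -0.13 and -0.08 in the 3 small clones. Large HCT116 clones 1 and 3 and large CAL51 clone 1 thus stood highest, with 73, 74 and 72 of 77 members above the 2N mean. Over all tested genes the same medians were at most 0.011 from 0 in every library.

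The DLD1 2N clones differed from each other by more than most 4N clones differed from their mean. The median member was 0.18 above that mean in 2N clone 1 and 0.18 below it in 2N clone 2, and 72 of 77 members were higher in clone 1. The parental DLD1 library lay between them, at -0.02. The share of all reads that fell on members was 0.356% to 0.567% over the 26 libraries, lowest in an HCT116 2N clone and highest in DLD1 2N clone 1.

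**Figure D2:**
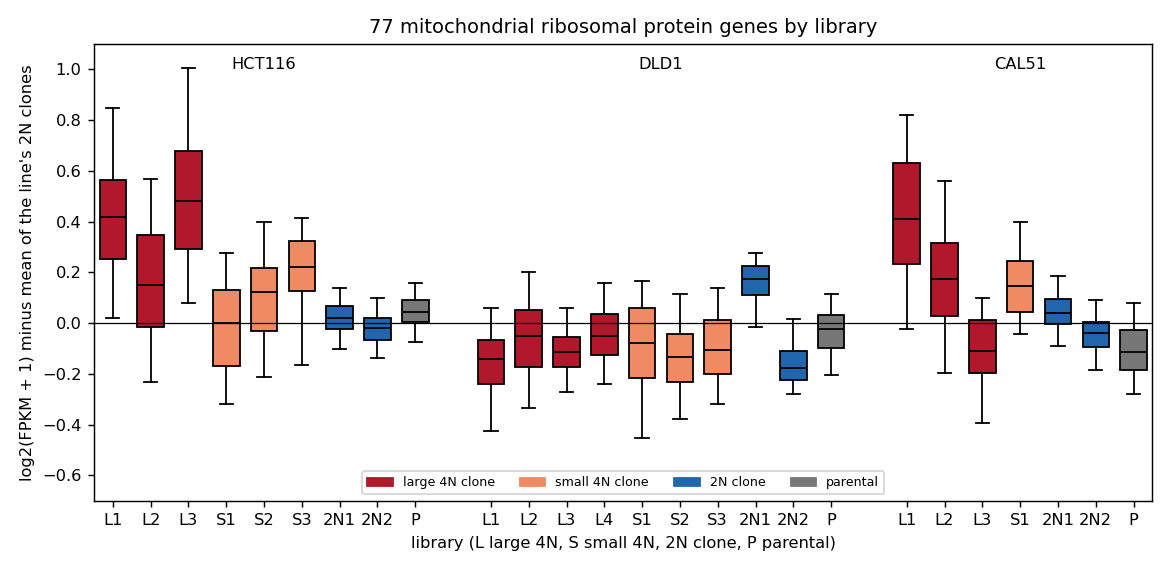
Difference of the 77 members from the mean of their line's 2N clones in log2(FPKM + 1) (y axis), for each library (x axis, L large 4N, S small 4N, 2N, P parental). Boxes span the quartiles with the median as a line, and whiskers the 5th to 95th percentiles of members. Large HCT116 clones 1 and 3 and large CAL51 clone 1 lie highest, and DLD1 2N clones lie on either side of 0.

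Large and small 4N clones were compared to ask which genes go with cell and nuclear size at the same ploidy. In HCT116, MRPS23 was higher in large clones and was the only member past an adjusted p of 0.05. MRPS23, a small-subunit protein with no bacterial counterpart (GRCh38 chr17:57834781-57850056, minus strand), had 26.4, 22.2 and 35.02 FPKM in large HCT116 clones 1, 2 and 3, 11.6, 11.2 and 17.4 FPKM in the small clones, 17.5 and 11.9 FPKM in the 2N clones and 12.99 FPKM in the parental library. Every large clone lay above every other HCT116 library, and the small clones overlapped the 2N clones. The log2 difference was 1.01 ± 0.18 (SE; limma, adjusted p = 0.0197), with means of 27.9 ± 6.53 FPKM in large clones and 13.4 ± 3.46 FPKM in small clones (SD, n = 3 each). Of all tested genes 0.445% were called, 0.297% higher and 0.148% lower in large clones, against 1 of 77 members.

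The MRPS23 call rested on the pooled spread and on single clones. Fitted on HCT116 alone the adjusted p was 0.357, and without small clone 1, large clone 1 or large clone 3 it was 0.109, 0.0519 or 0.0620, with log2 differences of 0.92, 1.03 and 0.84. In DLD1, MRPS23 had 8.97, 9.17, 9.37 and 9.29 FPKM in large clones and 10.0, 8.64 and 9.13 FPKM in small clones, which overlapped. In CAL51 it had 12.1, 8.59 and 8.64 FPKM in large clones and 9.37 FPKM in the small clone. The HCT116 effect minus the DLD1 effect was 1.01 ± 0.25 (SE) and did not pass (limma adjusted p = 0.170), nor did the HCT116 effect minus the CAL51 effect (0.97 ± 0.32 SE, adjusted p = 0.121).

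With MRPS23 included, 68 of 77 members had a higher mean in large than in small HCT116 clones, with a median log2 difference of 0.25, against -0.00 over all tested genes. An unadjusted p under 0.05 was found for 18 members (23.4%) and for 15.4% of all tested genes. In 16 members (20.8%) every large clone lay above every small clone, against 6.85% of all tested genes, and in 0 members every large clone lay below, against 7.50%. These members, described after their values were seen, had log2 differences between 0.20 and 1.01, and in 14 of them the large clones also lay above the 2N clones and the parental library.

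MRPL15 and MRPL39, both of the large subunit and chosen after their values were seen, are further examples. MRPL15, a homolog of a bacterial protein, had 55.0, 37.2 and 57.4 FPKM in large HCT116 clones, 24.0, 35.4 and 26.5 FPKM in small clones, 28.6 and 28.8 FPKM in 2N clones and 31.3 FPKM in the parental library (log2 difference, large minus small, 0.77 ± 0.19 SE; limma adjusted p = 0.0769). MRPL39, which is specific to mitochondria, had 28.0, 24.0 and 30.2 FPKM in large clones, 17.5, 19.3 and 19.6 FPKM in small clones, 15.2 and 15.1 FPKM in 2N clones and 16.6 FPKM in the parental library (0.51 ± 0.14 SE, adjusted p = 0.09997). Large clones stood above small clones in both genes, and for MRPL39 small clones stood above the 2N clones too. Neither difference passed the threshold.

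The large clones of HCT116 were not alike in this. Without large clone 2, whose median member was the lowest of the 3 large clones, 8 members passed, and without large clone 1, large clone 3 or small clone 1 the count was 0. The share of all tested genes called in these fits is not given here, so these counts have no background beside them. The large and small subunits did not stand apart: the median log2 difference was 0.24 over 51 large-subunit and 0.28 over 25 small-subunit members.

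**Figure D3:**
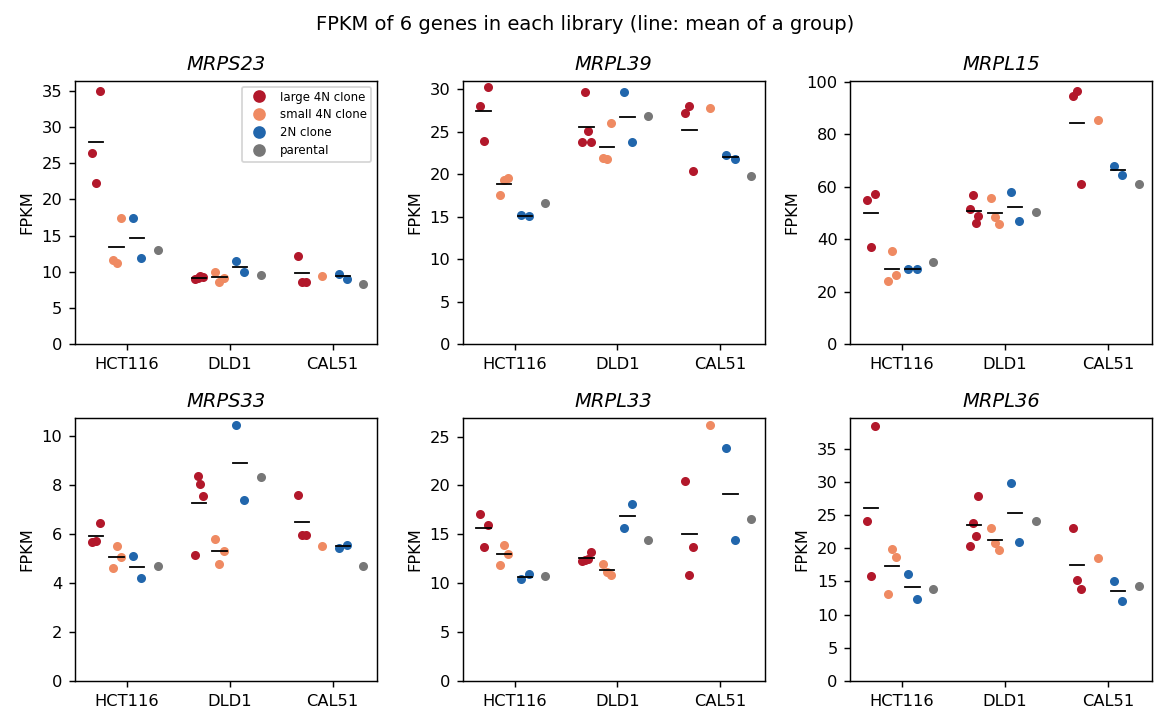
FPKM of MRPS23, MRPL39, MRPL15, MRPS33, MRPL33 and MRPL36 in each library (points) of HCT116, DLD1 and CAL51, in the order large 4N, small 4N, 2N and parental, with the mean of each group as a line. The y axes start at 0 and differ between panels. In HCT116 the large clones lie above the other libraries for MRPS23, MRPL39 and MRPL15.

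In DLD1, 0 members passed between large and small clones, against 0.472% of all tested genes, and 1 (1.30%) had an unadjusted p under 0.05, against 6.65%. The median difference was 0.01, and 40 of 77 members were higher. MRPS33, a small-subunit protein, had 5.16, 8.34, 8.03 and 7.56 FPKM in large clones and 5.81, 4.77 and 5.28 FPKM in small clones. Large clone 1 lay within the small clones and the other large clones above them (0.38 ± 0.15 SE, limma adjusted p = 0.529). The large clones lay wholly above the small clones for 4 members (5.19%, against 5.28% of all tested genes) and wholly below for 3 (3.90%, against 6.21%).

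In CAL51, which had 1 small clone, assumed to vary like the other groups, 0 members passed, against 1.52% of all tested genes (0.735% higher and 0.789% lower), and 2 (2.60%) had an unadjusted p under 0.05, against 12.4%. The median difference was 0.01, and it rested on single clones: it was -0.12 with 20 members higher without large clone 1, and 0.16 with 62 higher without large clone 3. MRPL33, a homolog of a bacterial large-subunit protein, had 20.4, 10.8 and 13.7 FPKM in large clones, 26.1 FPKM in the small clone and 23.8 and 14.5 FPKM in 2N clones (-0.81 ± 0.26 SE, limma adjusted p = 0.156). Without large clone 1 its difference was -1.04 (adjusted p = 0.0121). MRPS6, of the small subunit, had 13.05, 13.5 and 17.98 FPKM in large clones and 8.17 FPKM in the small clone (0.77 ± 0.27 SE, adjusted p = 0.205), and its 2N clones had 7.64 and 13.1 FPKM. The small clone was the highest library of the line for MRPL33, and for MRPS6 it lay between the 2N clones.

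Over the mean of the 3 lines, 0 members passed between large and small clones, against 0.398% of all tested genes, and 4 (5.19%) had an unadjusted p under 0.05, against 9.54%. MRPS23 (0.35 ± 0.12 SE, limma adjusted p = 0.306), MRPS6 (0.32 ± 0.13 SE, adjusted p = 0.398) and MRPS33 (0.26 ± 0.10 SE, adjusted p = 0.414) had the highest statistics. MRPL33, MRPS35 and MRPL48 had the lowest, at -0.14, -0.11 and -0.10. The median was 0.09 over all lines, 0.02 without HCT116, 0.04 without CAL51 large clone 1 and 0.14 without CAL51 large clone 3. The size effect was also compared between lines, and 0 members differed in it past the threshold, in HCT116 minus DLD1 (0.155% of all tested genes), HCT116 minus CAL51 (1.54%) or CAL51 minus DLD1 (0.667%).

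The 4N clones were compared with the 2N clones to ask what goes with doubling. Every 4N clone had been exposed to a drug and the labels list none for the 2N clones. Ploidy and drug exposure therefore cannot be told apart here. In HCT116, 0 members passed, against 0.108% of all tested genes (0.0337% higher and 0.0741% lower), and 9 (11.7%) had an unadjusted p under 0.05, against 8.73%. Of the 77, 71 had a higher mean in 4N clones and the median log2 difference was 0.24, against 0.00 over all tested genes. MRPL39, with the values above, had the highest statistic (0.55 ± 0.14 SE, limma adjusted p = 0.177). It passed when the parental library was counted with the 2N clones (0.51, adjusted p = 0.0329). MRPL23 (0.55 ± 0.18 SE, adjusted p = 0.323) and MRPL41 (0.59 ± 0.22 SE, adjusted p = 0.385) followed, and MRPL48, MRPL38 and MRPS14 had the lowest statistics, between -0.13 and -0.09.

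In 13 members (16.9%) all 6 HCT116 4N clones lay above all 3 HCT116 2N and parental libraries, against 2.93% of all tested genes, and in 0 members they lay below, against 3.24%. The 13, described after their values were seen, were MRPL11, MRPL16, MRPL18, MRPL22, MRPL27, MRPL33, MRPL39, MRPL41, MRPL44, MRPL47, MRPL52, MRPS18C and MRPS36. MRPL33 had 17.1, 13.8 and 16.0 FPKM in large clones, 11.9, 13.9 and 13.01 FPKM in small clones, 10.4 and 10.9 FPKM in 2N clones and 10.7 FPKM in the parental library. In this gene large and small clones overlapped, and no 2N library reached them.

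In DLD1, 0 members passed between 4N and 2N clones, against 0.0337% of all tested genes, 3 (3.90%) had an unadjusted p under 0.05, against 5.01%, and 63 of 77 had a lower mean in 4N clones (median -0.10). The direction depended on the 2N clone. Without 2N clone 1 the median was 0.07 and 54 members were higher, and without 2N clone 2 it was -0.28 and 1 was higher. MRPL33 had 12.2, 12.4, 12.5 and 13.2 FPKM in large clones, 12.01, 11.1 and 10.8 FPKM in small clones, 15.6 and 18.1 FPKM in 2N clones and 14.4 FPKM in the parental library. MRPS21 had 12.1 to 14.5 FPKM in the 7 4N clones, 17.8 and 15.1 FPKM in 2N clones and 15.6 FPKM in the parental library. Every 4N clone lay below every 2N and parental library for these 2 members (2.60%, against 0.748% of all tested genes), although neither passed the test (-0.46 ± 0.18 SE, limma adjusted p = 0.840, and -0.29 ± 0.12 SE, adjusted p = 0.879). MRPS33 had the lowest statistic (-0.45 ± 0.15 SE, adjusted p = 0.761), and 3 of its 4 large clones lay within the 2N and parental range. MRPS6 had the highest (0.33 ± 0.19 SE, adjusted p = 1.00).

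In CAL51, 0 members passed between 4N and 2N clones, against 0.108% of all tested genes, 0 had an unadjusted p under 0.05, against 2.93%, and 73 of 77 had a higher mean in 4N clones (median 0.15, against 0.00). The median was 0.0867 without large clone 1. In 6 members (7.79%) all 4 CAL51 4N clones lay above the 3 2N and parental libraries, against 2.07% of all tested genes, and in 0 members they lay below, against 1.95%. MRPS18A (0.29 ± 0.17 SE), MRPL34 (0.35 ± 0.21 SE) and MRPL39 (0.25 ± 0.15 SE) had the highest statistics, each with a limma adjusted p of 1.00. Large clone 3 went the other way, with 21 of 77 members above the 2N mean.

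Over the mean of the 3 lines, 0 members passed between 4N and 2N clones, against 0.00674% of all tested genes, and 4 (5.19%) had an unadjusted p under 0.05, against 5.00%, with 67 of 77 higher and a median of 0.08. The median was 0.15 without DLD1 2N clone 1 and 0.0352 without DLD1 2N clone 2. MRPL39 (0.23 ± 0.08 SE), MRPL23 (0.26 ± 0.11 SE) and MRPL4 (0.22 ± 0.10 SE) had the highest statistics (limma adjusted p = 0.955 each). The 4N minus 2N difference was likewise compared between lines, and 0 members differed in it past the threshold in HCT116 minus DLD1 (0.00674% of all tested genes), HCT116 minus CAL51 (0.0270%) or CAL51 minus DLD1 (0.00674%).

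No gene of the lists of related genes was called between large and small or between 4N and 2N clones. The 72 tested nuclear subunits of oxidative phosphorylation had a median log2 difference of 0.10 between large and small HCT116 clones and 0.18 between HCT116 4N and 2N clones, with 0 of 72 called in either. The 79 cytosolic ribosomal proteins had medians of 0.13 and -0.07, and the 13 mitochondrially encoded mRNAs 0.05 and -0.13, again with 0 called. The 28 factors of mitochondrial ribosome assembly and the 16 mitochondrial translation factors had medians of 0.19 and 0.33 between large and small HCT116 clones, with 0 called in either list. In large minus small CAL51 clones, where the members' median was 0.01, 71 of 72 nuclear subunits of oxidative phosphorylation had a higher mean (median 0.22). In large minus small DLD1 clones 72 of 79 cytosolic ribosomal proteins had a higher mean (median 0.11), against 40 of 77 members. The part of these genes in the members' differences was not tested.

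Between lines the members differed widely, as did most genes. The lines were compared over equally weighted class means of clones, leaving out the parental libraries. Between DLD1 and HCT116, 46 members passed (59.7%), 37 higher and 9 lower in DLD1, against 63.7% of all tested genes (30.8% higher and 33.0% lower). Between CAL51 and HCT116, 42 passed (54.5%), 27 higher and 15 lower in CAL51, against 64.0% (32.6% and 31.5%). Between DLD1 and CAL51, 31 passed (40.3%), 21 higher and 10 lower in DLD1, against 61.0% (29% and 32%). In each comparison the share of members called was below that of all genes. Called in none were 14 of 77 members, and the matching share of all tested genes was not counted. The pairs share libraries, so their calls are not independent.

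The members leaned towards higher levels in DLD1. The median log2 difference was 0.27 in DLD1 minus HCT116, 0.17 in CAL51 minus HCT116 and 0.14 in DLD1 minus CAL51, where the medians of all tested genes were -0.00, 0.02 and -0.01. The mean FPKM was highest in DLD1 for 40 members, in CAL51 for 20 and in HCT116 for 17. The order of levels was nonetheless close: across the 77 genes, which share length and annotation, Spearman's rho of the line means was 0.89 for DLD1 and HCT116, 0.89 for CAL51 and HCT116 and 0.95 for DLD1 and CAL51.

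Members higher in HCT116 included MRPS21 and MRPL10. MRPS21, the counterpart of a bacterial small-subunit protein, had a median of 13.9 FPKM in DLD1 (lowest 12.1, highest 17.8, n = 10), 13.8 in CAL51 (12.9 to 19.6, n = 7) and 36.0 in HCT116 (34.4 to 42.7, n = 9). HCT116 overlapped neither line, and DLD1 and CAL51 overlapped. The log2 differences were -1.33 ± 0.07 (SE; limma adjusted p = 2.34e-11) for DLD1 minus HCT116 and -1.34 ± 0.09 (adjusted p = 1.56e-10) for CAL51 minus HCT116.

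MRPL10, which anchors the stalk protein MRPL12 to the large subunit, had a median of 19.7 FPKM in DLD1 (18.5 to 23.5), 14.8 in CAL51 (12.96 to 18.1) and 39.6 in HCT116 (32.8 to 49.6). The log2 differences were -0.98 ± 0.08 (SE; limma adjusted p = 3.72e-09) and -1.39 ± 0.09 (adjusted p = 2.08e-10) against HCT116, which again overlapped neither line. MRPS10, of the small subunit, had medians of 22.9 FPKM in DLD1, 17.5 in CAL51 and 37.0 in HCT116 (CAL51 minus HCT116 -0.95 ± 0.10 SE, adjusted p = 2.81e-07). MRPS23 had medians of 9.33 FPKM in DLD1, 9.03 in CAL51 and 17.4 in HCT116 (DLD1 minus HCT116 -0.78 ± 0.11 SE, adjusted p = 7.67e-06), where the large clones set the top of the HCT116 range.

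Members highest in DLD1 included MRPL23, MRPL17 and MRPL16, all homologs of bacterial large-subunit proteins encoded on chromosome 11. MRPL23 had a median of 21.2 FPKM in DLD1 (19.1 to 23.4), 10.5 in CAL51 (9.63 to 16.2) and 7.29 in HCT116 (5.84 to 11.8). DLD1 overlapped neither line (DLD1 minus HCT116 1.34 ± 0.11 SE, limma adjusted p = 6.03e-09, and DLD1 minus CAL51 0.82 ± 0.13 SE, adjusted p = 1.58e-05). MRPL17 had a median of 46.5 FPKM in DLD1 (41.7 to 56.7), 24.6 in CAL51 (21.3 to 42.2) and 18.2 in HCT116 (15.1 to 35.8). Its differences were 1.21 ± 0.14 SE (adjusted p = 4.74e-07) for DLD1 minus HCT116 and 0.86 ± 0.16 SE (adjusted p = 0.000122) for DLD1 minus CAL51, and 1 CAL51 library lay inside the DLD1 range. MRPL16 differed by 0.92 ± 0.11 SE from HCT116 (adjusted p = 1.20e-06) and by 0.61 ± 0.13 SE from CAL51 (adjusted p = 0.000465).

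MRPL28 and MRPL57 were low in HCT116 against both other lines. MRPL28, another homolog of a bacterial protein, had a median of 33.1 FPKM in DLD1 (29.4 to 41.6), 29.1 in CAL51 (23.5 to 42.2) and 14.2 in HCT116 (12.5 to 18.3). The differences were 1.14 ± 0.10 SE (limma adjusted p = 1.07e-08) for DLD1 minus HCT116 and 0.95 ± 0.11 SE (adjusted p = 7.25e-07) for CAL51 minus HCT116. MRPL57 differed by 0.77 ± 0.10 SE between DLD1 and HCT116 (adjusted p = 1.84e-06). For MRPL28 both lines lay wholly above HCT116, and they overlapped each other.

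CAL51 was the highest line for MRPL37, MRPL15 and MRPL51. MRPL37, which is specific to mitochondria, had a median of 67.5 FPKM in DLD1 (59.4 to 83.2), 96.4 in CAL51 (79.4 to 126) and 45.3 in HCT116 (38.9 to 59.8). The differences were 1.09 ± 0.10 SE (limma adjusted p = 4.16e-08) for CAL51 minus HCT116 and -0.53 ± 0.10 SE (adjusted p = 0.000183) for DLD1 minus CAL51. MRPL15 differed by 1.16 ± 0.13 SE (adjusted p = 4.94e-07) and MRPL51 by 0.77 ± 0.10 SE (adjusted p = 1.95e-06) between CAL51 and HCT116.

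CAL51 was low for MRPS22, MRPL30 and MRPL44. MRPS22, a small-subunit protein that is mutated in an inherited mitochondrial disease, had a median of 9.16 FPKM in DLD1 (7.12 to 11.47), 5.67 in CAL51 (4.74 to 6.19) and 9.65 in HCT116 (8.59 to 12.9). CAL51 lay wholly below both lines (CAL51 minus HCT116 -0.73 ± 0.10 SE, limma adjusted p = 2.24e-06, and DLD1 minus CAL51 0.61 ± 0.09 SE, adjusted p = 1.76e-05). MRPL30 (0.82 ± 0.13 SE, adjusted p = 2.21e-05) and MRPL44 (0.59 ± 0.12 SE, adjusted p = 0.000374) were higher in DLD1 than in CAL51.

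Lists of genes with related roles gave these values between lines. Of the 13 mitochondrially encoded mRNAs, 12 passed in DLD1 minus HCT116 and 12 in CAL51 minus HCT116, all lower, with medians of -1.12 and -1.10. Of 79 cytosolic ribosomal proteins, 70 were lower in CAL51 than in HCT116 (median -0.68) and 74 higher in DLD1 than in CAL51 (median 0.71), where the members had medians of 0.17 and 0.14. The nuclear subunits of oxidative phosphorylation had medians of 0.07 in DLD1 minus HCT116, 0.21 in CAL51 minus HCT116 (29 higher and 8 lower) and -0.16 in DLD1 minus CAL51. No test compared the lists.

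Other genes of mitochondrial translation were counted in the same way, where 30.8% of all tested genes were higher and 33.0% lower in DLD1 than in HCT116. Of 6 mitochondrial ribosome subunits with other names, 4 were higher in DLD1 than in HCT116 and 0 lower, among them AURKAIP1 (0.49 ± 0.10 SE, limma adjusted p = 0.000271) and DAP3 (0.27 ± 0.08 SE, adjusted p = 0.00848), both small-subunit proteins. Of 28 assembly factors, 14 were higher and 7 lower, including MTG1 (0.74 ± 0.07 SE, adjusted p = 9.17e-08), a GTPase of large-subunit assembly. Of 16 translation factors, 7 were higher and 2 lower, including GFM1 (0.89 ± 0.09 SE, adjusted p = 1.18e-07), the mitochondrial elongation factor G, and MTIF2 (0.82 ± 0.08 SE, adjusted p = 5.62e-08), an initiation factor. In CAL51 minus HCT116, 2 of the translation factors were higher and 6 lower (median -0.04). Of 16 genes of mitochondrial transcription and its regulation, 3 were higher and 5 lower in DLD1 than in HCT116 (median -0.07).

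**Figure D4:**
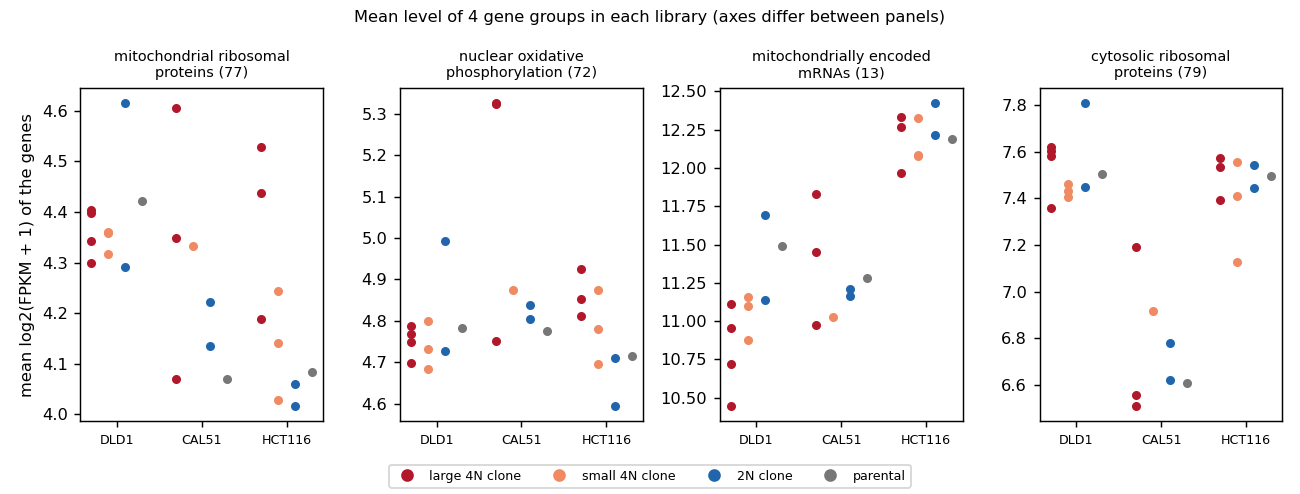
Mean log2(FPKM + 1) of the members, the nuclear genes of oxidative phosphorylation, the mitochondrially encoded mRNAs and the cytosolic ribosomal proteins (1 panel each) in every library of DLD1, CAL51 and HCT116. Colours give the class, and the y axes differ and do not start at 0. Mitochondrially encoded mRNAs lie highest in HCT116 and cytosolic ribosomal proteins lowest in CAL51.

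The genomic surroundings of the members varied with them to a limited degree. For 74 members with at least 10 other genes of mean FPKM 5 or more within 5 Mb, Pearson's r between the member's log2 difference and the median of its neighbours was 0.43 in DLD1 minus HCT116, 0.25 in CAL51 minus HCT116 and 0.31 in DLD1 minus CAL51. It was 0.22 for large minus small HCT116 clones and 0.38 for CAL51 4N minus 2N clones. These values describe genes that share libraries and partly share neighbours.

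Some of the line differences stood in shifted surroundings and some did not. The neighbours of MRPL23 were also higher in DLD1 than in HCT116 (median 0.90 over 58 genes), as were those of MRPL17 (0.60 over 38), and the neighbours of MRPS23 were lower (-0.51 over 33). The neighbours of MRPL28 were higher by a smaller amount (0.22 over 96), and those of MRPS21 (0.13 over 78) and MRPL10 (-0.05 over 80) differed little. The difference of MRPS23 between large and small HCT116 clones had neighbours with a median of 0.00.

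Clone by clone, members were also set beside their chromosome. A chromosome was listed as shifted in a 4N clone when the median of its genes differed by at least 0.2 (log2) from the line's 3 2N and parental libraries, relative to all genes of the clone. Members lay on 16 such shifts, giving 54 pairs of member and clone, and in 45 of them the member had the sign of the chromosome. That is 83.3%, and of the members on chromosomes not listed as shifted in the same clones, counted for each shift, 52.5% had that sign. The members of a clone mostly shared a sign on all chromosomes: in large HCT116 clone 3, 66 of 72 members on chromosomes not listed were higher, and in large DLD1 clone 1, 59 of 73 were lower. The difference between these shares was not tested.

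In DLD1, 17 of 18 pairs on lowered chromosomes were lower (94.4%), against 59% on chromosomes not listed as shifted. In large clone 1 chromosome 3 was at -0.27, and MRPL47 (21.8 FPKM, against 28.4 to 39.4 FPKM in the 2N and parental libraries), MRPS22, MRPL3 and MRPS25 lay between -0.51 and -0.27. In large clone 2 chromosome 10 was at -0.33, and MRPL43 had 11.2 FPKM, against 13.97 to 19.6 FPKM in the 2N and parental libraries (-0.46), and MRPS16 lay at -0.28. In small clone 1 chromosome 5 was at -0.29, and 4 of 5 members were lower, MRPS36 (-0.45) and MRPL22 (-0.39) most. On chromosome 7, at -0.30 in large clone 2 and -0.29 in large clone 4, MRPL32, MRPS33 and MRPS17 were lower by smaller amounts, between -0.39 and -0.01.

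In CAL51 large clone 2, chromosome 11 was at 0.27 and all 7 members on it were higher, by 0.08 to 0.52, MRPL21 most, while 55 of 68 members on chromosomes not listed were higher in that clone. Chromosome 10 was at 0.25 in the same clone, with MRPS16 at 0.67 (73.7 FPKM, against 43.8 to 48.5 FPKM) and MRPL43 at 0.49. In CAL51 large clone 1, chromosome 19 was at 0.27 and its members MRPS12, MRPL54, MRPL34 and MRPL4 lay between 0.38 and 0.67. On chromosomes not listed, 61 of 71 members were higher in that clone. Chromosome 13 was at -0.32 there, with MRPS31 lower (-0.27) and MRPL57 higher (0.42). In the small CAL51 clone chromosome 4 was at -0.21, with MRPL1 at -0.10 and MRPS18C at 0.03.

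In HCT116 large clone 3, chromosome 5 was at 0.27 and its 5 members were higher by 0.33 to 1.30. MRPL36, a homolog of a small bacterial large-subunit protein, had 38.4 FPKM in that clone, against 12.3 to 16.1 FPKM in the 2N and parental libraries, and 24.2 and 15.8 FPKM in large clones 1 and 2. In large clone 1 chromosome 1 was at -0.30, yet 6 of 8 members on it did not have its sign, such as MRPL24 (0.34) and MRPS15 (0.32), and MRPS14 was lower (-0.28). In small clone 3 chromosome 15 was at -0.45, and MRPS11 (-0.30) and MRPL46 (-0.15) were lower. Expression medians show no copy number, and whether a chromosome had changed in number was not tested.

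**Figure D5:**
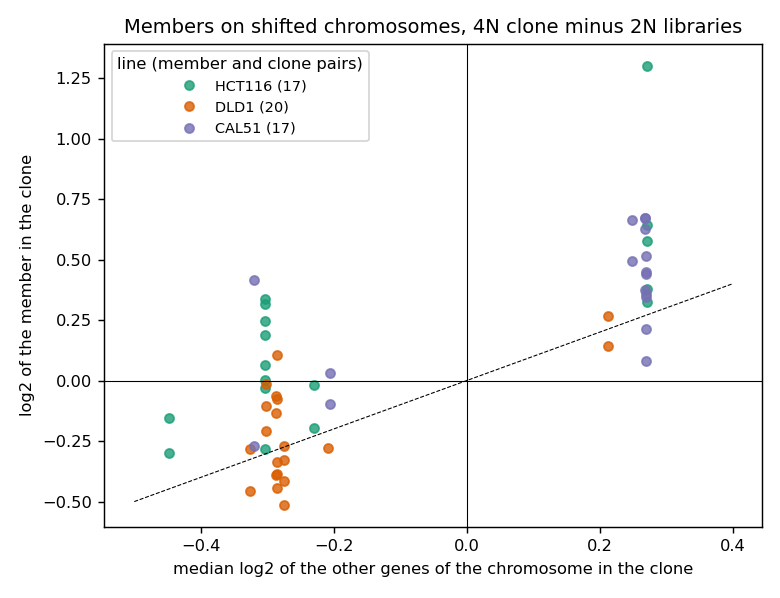
Log2 difference of each member from the 2N and parental libraries of its line (y axis) against the median of its chromosome in the same 4N clone (x axis), for the 54 pairs on shifted chromosomes, both relative to the median of all genes. The dashed line marks equal values. Most DLD1 points on lowered chromosomes lie below 0, while 6 of the 8 HCT116 members at -0.30 do not.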

How the data were processed

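Poly-A RNA of 26 libraries had been sequenced with directional (dUTP) libraries, per the labels' protocols. The authors deposited FPKM values per gene and library. fastp, HISAT2 2.0.5, featureCounts 1.5.0-p3, DESeq2 and the build GRCh38 are named per the submitters' processing notes, and the strand setting of the counting is not given in the sources used here. FPKM times gene length gave whole reads for 100% of values (tolerance 0.01).

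limma 3.58.1 in R 4.3.3 (trend, two-sided, Benjamini-Hochberg over 14835 genes, threshold 0.05) was fitted to log2(FPKM + 1), keeping genes with 1 FPKM in 3 libraries, with 12 means of line and class and 14 residual degrees of freedom. Fold changes on this scale understate those of low genes. Parental libraries had their own means and entered no comparison unless stated. Tables and figures used Python 3.11.15, numpy 2.4.6, pandas 2.3.3 and matplotlib 3.10.9. The fit was tested on simulated data.

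The members, lists and tests were chosen with earlier results of these data known. Named were, per comparison, up to 8 called members or else the 3 highest and 3 lowest statistics. Further named were the 5 highest and 5 lowest levels, the 6 widest residual SDs, and up to 2 members per shifted chromosome and line. Others were chosen after their values were seen. Alternatives were another pseudocount, filters, median-ratio scaling, voom, a replicate block, separate lines, parental libraries as 2N, and leaving out clones or lines. The main fit did not pair samples by clone number. Of 16 same-numbered pairs, 6 had a correlation of residuals over 0.1 (-0.056 to 0.205). Such pairs lay between 0.028 and 0.197 in HCT116, between -0.056 and 0.085 in DLD1, and at 0.205 and 0.180 in CAL51. The labels do not say what a shared number means, and the replicate block was run as an alternative only.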

Additional observations from a re-analysis of the deposited data

Results flagged for a closer look

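In the 4 large DLD1 clones, 5 of 77 members had a clone far from the other 3 by Dixon's criterion, where chance flags about 1 in 20 groups. In clone 4, MRPL23 was lowest at 19.97 FPKM, against 21.2 to 21.4 FPKM in the other clones. MRPL4 was highest there at 27.05 FPKM, against 24.8 to 25.2 FPKM, and MRPL57 at 48.7 FPKM, against 40.0 to 40.8 FPKM. In clone 2, MRPL43 was lowest at 11.2 FPKM, against 14.4 to 14.5 FPKM, and MRPS18C was highest at 4.598 FPKM, against 3.92 to 4.01 FPKM. MRPL43 lies on chromosome 10, whose median was at -0.33 in that clone.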

How the results depend on the processing

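Of the counts of members called, 317 of the alternative values were within 1.5 times the main count and 10 were not. With parental libraries as 2N, 1 member (MRPL39) passed for 4N minus 2N in HCT116, against 0. With each line fitted alone, 0 passed for large minus small HCT116 clones, against 1. Leaving out a clone gave 0 to 8 there, and 0 to 2 for large minus small CAL51 clones, the 2 without large clone 1. The cause was not tested, and the shares of all tested genes called under these alternatives are not given here. With the replicate block the counts were 1 for large minus small HCT116 clones and 44, 33 and 38 for DLD1 minus HCT116, CAL51 minus HCT116 and DLD1 minus CAL51, and the block moved no count past 1.5 times. The DLD1 4N minus 2N median was 0.07 and -0.28 without 2N clones 1 and 2, and the CAL51 large minus small median was 0.23 with the block.

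Signs turned in 12 values of named members, none of them called. For large minus small over the lines, MRPS35 was 0.0486 with the replicate block and 0.10 without CAL51, and MRPL33 was 0.19 without CAL51. For 4N minus 2N in CAL51, MRPS14 was 0.0455 with the block and 0.0574 with parental libraries as 2N, and MRPL42 was 0.0529 with parental libraries as 2N too. Leaving out a clone there gave -0.0516 to 0.0318 for MRPS14, -0.16 to 0.0873 for MRPL42 and -0.0699 to 0.0049 for MRPL38. In DLD1 4N minus 2N it gave -0.13 to 0.37 for MRPL34 and -0.10 to 0.23 for MRPL35.

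The filter on a mean of 5 FPKM and the differences between lines were added after seeing the data. The edgeR quasi-likelihood and DESeq2 fits on reads recovered from FPKM were planned and not run, and voom was run on those reads instead. Each line had 2 2N clones and CAL51 1 small clone, which limits the precision of those comparisons, and depth limits the lowest members most.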
